A study of Canis lupus familiaris with 8 samples.

Results

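Genes of class I and class II antigen presentation were followed in dog retina prepared in 2 ways. The deposited table was searched for CD74, B2M, TAP1, TAP2, TAPBP, CIITA and NLRC5 and for every symbol that starts with DLA (dog leukocyte antigen). Of the 7 listed symbols 5 were found, and TAP1 and CIITA are not analysed here. The prefix found 9 symbols. One of these is DLAT, which encodes a subunit of the pyruvate dehydrogenase complex and is a match by letters alone, so 14 of the 12824 genes of the table met the rule and 13 are antigen presentation genes. HLA-DQB2, a class II beta chain named in the table by its human symbol, lay outside the rule and is given beside the class II genes.

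All 8 libraries came from the retina of male wild-type Beagles aged 31 weeks, with 4 biological replicates for each preparation. Fresh-frozen tissue came from right eyes, whose eyecups were cut into 4 quadrants and embedded in freezing medium without fixation or cryoprotection. PFA-fixed tissue came from left eyes kept in 4% paraformaldehyde for 3 h and in 2% paraformaldehyde for a further 24 h, then cut into 4 quadrants and taken through 15% and 30% sucrose for 24 h each before embedding. RNA was extracted with the RNeasy Plus Micro kit from fresh-frozen tissue and with the RNeasy FFPE kit, a proteinase K digestion of 18 h at 56 °C and a second DNA digestion from fixed tissue. Fixation, eye and extraction kit therefore cannot be told apart. The number of dogs and the link between libraries of one dog are not given in the labels, so the p-values reflect only how far these libraries spread.

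Class I molecules show peptides from inside the cell to cytotoxic T cells. A polymorphic heavy chain pairs with beta-2-microglobulin (B2M), and the proteasome, the TAP transporter and the chaperone tapasin (TAPBP) supply and load the peptide. Class II molecules are dimers of an alpha and a beta chain that show peptides from endosomes to helper T cells. The invariant chain CD74 escorts them there, and the DM dimer exchanges its remnant for a peptide. NLRC5 and CIITA are the transcriptional activators of class I and class II genes. In healthy retina neurons carry little of either class, and class II is known mainly from myeloid cells.

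Expression was measured as the log2 of read counts scaled to library size (log2 CPM), and a change is the PFA-fixed mean minus the fresh-frozen mean on that scale, so that -1 stands for a level 2-fold lower in fixed tissue. Each change was tested with limma and adjusted by Benjamini-Hochberg over all genes, and a gene is called where its adjusted p lies under 0.05. Effective depth, estimated from the spacing of low values, ran from 21650000 to 22740000 reads in fresh-frozen and from 11010000 to 15370000 in fixed libraries. All 13 members exceeded 1 CPM in all 8 libraries, so none entered the table through one group alone. Rod genes, which mark the retina, were abundant in both preparations, with 17 of 17 measured and a summed level of 27533 to 31922 CPM in fresh-frozen and 29756 to 34105 CPM in fixed libraries.

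Antigen presentation genes were lower in fixed retina, with 2 exceptions. Of the 13 members 11 were called lower, where 34.7% of all genes were, and 2 were called higher, where 33.9% were. All 13 were called in one direction or the other (68.7% of all genes). For those 11, all fixed values lay below all fresh-frozen values (31.6% of all genes), and for the other 2 they lay above (31.3% of all genes). A called fall of at least 2-fold was seen in 9 members (13.7% of all genes), one of at least 4-fold in 5 (5.84%) and one of at least 8-fold in 2 (2.90%). No member rose by 2-fold, where 10.6% of all genes did. The median change was -1.19 over the members and -0.02 over all genes. After the libraries were aligned on their mean rod gene level, rising genes made up 34.7% of all calls in place of 49.4% and the median change of all genes moved to -0.22, and the members still divided into 11 falls and 2 rises.

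**Figure D1:**
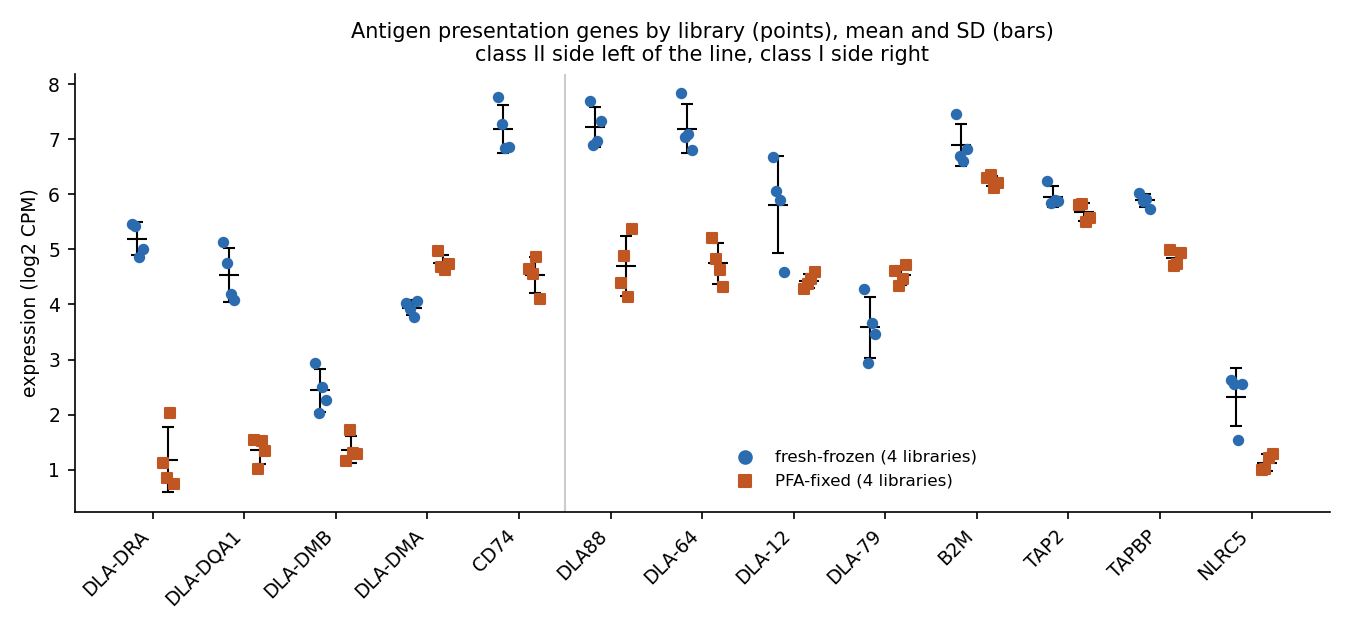
Expression of the 13 members in log2 CPM (vertical axis), with 1 point for each of the 4 fresh-frozen (circles) and 4 PFA-fixed (squares) libraries and bars for the mean and SD. DLA-DRA and DLA-DQA1 lie at least 2.55 apart between the groups, DLA-12 and TAP2 touch, and DLA-DMA and DLA-79 are higher in fixed libraries.

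The chains of the class II molecules had the largest falls among the members. DLA-DRA, the DR alpha chain, was at 5.47, 5.43, 4.87 and 5.01 log2 CPM in fresh-frozen replicates 1 to 4 and at 1.12, 0.85, 2.03 and 0.74 in PFA-fixed replicates 1 to 4. The lowest fresh-frozen library stood 2.84 above the highest fixed one, which was replicate 3. Its change was -4.01 ± 0.264 (SE, n = 4 each; limma adjusted p = 1.01e-07), a 16.1-fold lower level, and only 1.34% of all genes had a lower value of the change. DLA-DQA1, the DQ alpha chain, was at 5.14, 4.75, 4.19 and 4.08 log2 CPM in fresh-frozen and at 1.53, 1.01, 1.51 and 1.34 in fixed libraries. The groups were 2.55 apart, with a change of -3.19 ± 0.233 (SE; limma adjusted p = 2.30e-07), a 9.13-fold lower level.

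HLA-DQB2 is given as a description, with no test. Its levels were 2.03, 2.07, 1.56 and 1.55 log2 CPM in fresh-frozen libraries and -1.85, -1.37, -1.19 and -0.95 in fixed ones, a difference of -3.14. It exceeded 1 CPM in 4 libraries, all of them fresh-frozen, and 4 is the smallest number found for any gene of the table, so a gene with these low fixed values could be in the table only through the fresh-frozen group. The depth behind the fixed values was small. HLA-DQB2 rested on an estimated 2 to 5 reads in each fixed library, DLA-DQA1 on 21 to 42 and DLA-DRA on 19 to 61, against 63 to 89, 383 to 761 and 645 to 956 in fresh-frozen libraries. The small amount added before the logarithm, equal to the lowest value of the table (0.115 CPM), makes a fall to such levels appear smaller than it was.

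CD74, the invariant chain, was at 7.76, 7.28, 6.85 and 6.86 log2 CPM in fresh-frozen libraries and at 4.65, 4.55, 4.86 and 4.09 in fixed libraries. The groups were 1.99 apart, and CD74 was 6.27-fold lower in fixed retina (change -2.65 ± 0.205, SE, n = 4 each; limma adjusted p = 3.70e-07). CD74 also serves at the cell surface as the receptor of the cytokine MIF, together with CD44 and chemokine receptors. Of 4 measured genes of that complex 3 fell, where 34.7% of all genes did. The adhesion receptor CD44 fell by 1.87 and the chemokine receptors CXCR4 and ACKR3 by 1.75 and 1.51, whereas the ligand MIF differed by -0.04 (limma adjusted p = 0.730).

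The partners of the DM dimer changed in opposite directions. DLA-DMB was at 2.94, 2.04, 2.51 and 2.27 log2 CPM in fresh-frozen libraries and at 1.15, 1.72, 1.29 and 1.29 in fixed ones, and fell by 1.08 (SE 0.231; limma adjusted p = 0.00137). DLA-DMA was at 4.03, 3.92, 3.77 and 4.06 log2 CPM in fresh-frozen libraries and at 4.96, 4.68, 4.62 and 4.73 in fixed ones, and rose by 0.81 (SE 0.111; limma adjusted p = 4.69e-05). The groups overlapped for neither gene, with distances of 0.32 and 0.57. DLA-DMB rested on an estimated 26 to 36 reads in each fixed library and DLA-DMA on 280 to 383. The log2 ratio of DLA-DMA to DLA-DMB within a library ran from 1.09 to 1.88 in fresh-frozen and from 2.96 to 3.81 in fixed retina, which is a description of a pair chosen after its values were seen. A change of such a ratio does not depend on the scaling between libraries. An effect of gene length cancels only where it is the same in both preparations, which was not tested. The small amount added before the logarithm does not fully cancel either.

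Of 9 class II processing genes 6 fell and 1 rose, where 34.7% and 33.9% of all genes did, with a median change of -1.52. The cathepsins CTSB, CTSD and CTSS, endosomal proteases that trim antigen or the invariant chain, fell by 2.18, 1.62 and 1.52. The thiol reductase IFI30 fell by 1.69, the legumain gene LGMN by 1.56, and SPPL2A, the protease that clears the last CD74 fragment from the membrane, by 1.03. CTSL, another cathepsin, was at 6.90 ± 0.08 in fresh-frozen and 6.89 ± 0.10 log2 CPM in fixed libraries (SD, n = 4 each). The ubiquitin ligase gene MARCHF8 rose by 0.53. MARCHF1, whose product removes class II from the cell surface, differed by -0.01 (limma adjusted p = 0.966).

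Markers of myeloid cells moved with the class II genes. Of 15 microglia and macrophage markers 13 were called lower and none higher, where 34.7% and 33.9% of all genes were, with a median change of -2.34. Their summed level ran from 148 to 204 CPM in fresh-frozen and from 25.7 to 33.1 CPM in fixed libraries. Among them the receptor CSF1R fell by 2.78 and the leukocyte phosphatase PTPRC by 2.72, close in size to CD74, and TMEM119 stood at the lowest value of the table in fixed replicate 2. TMEM119 and FCER1G exceeded 1 CPM in fresh-frozen libraries alone. Like HLA-DQB2, they could be in the table only through that group, so their falls add nothing to the count, and the median includes them. In contrast, AIF1 differed by -0.40 (limma adjusted p = 0.154, and 0.0422 without the intensity trend) and P2RY12 by 0.23 (limma adjusted p = 0.605). In bulk tissue fewer cells of a type and less RNA in each cell cannot be told apart, and the part of these cells in the class II result was not tested.

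Markers of other immune cells went both ways. Of 7 dendritic cell markers 3 were measured, with a summed level of 40.3 to 42.9 CPM in fresh-frozen and 55.5 to 59.5 CPM in fixed libraries. The lectin CD209 rose by 2.06, and FLT3 and ZBTB46 differed by 0.16 and -0.27 (limma adjusted p = 0.435 and 0.0817). FLT3 was called higher after quantile normalization (0.48) and was at -0.0410 with rod centring, in which the mean log2 CPM of the rod photoreceptor markers is set equal in all libraries. ZBTB46 was called lower without fresh-frozen replicate 4 (-0.38) and with rod centring (-0.47). Of 6 measured lymphocyte markers 3 fell and 3 rose, where 34.7% and 33.9% of all genes did. The summed level of these markers was 106 to 131 CPM in fresh-frozen and 87.1 to 90.2 CPM in fixed libraries. The T cell genes CD2 and CD4 fell by 2.60 and 1.77, and the B cell gene PAX5 rose by 1.78.

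Class I heavy chains fell as well, except for DLA-79. DLA88, the main classical class I gene of the dog, was at 7.70, 6.90, 6.97 and 7.32 log2 CPM in fresh-frozen libraries and at 4.38, 4.89, 4.14 and 5.36 in fixed libraries. All fixed libraries were at least 1.53 below all fresh-frozen ones, and the change was -2.53 ± 0.246 (SE, n = 4 each; limma adjusted p = 2.58e-06), a 5.77-fold lower level. The class I gene DLA-64 was at 7.83, 7.05, 7.09 and 6.81 log2 CPM in fresh-frozen and at 5.21, 4.83, 4.63 and 4.32 in fixed libraries. The distance between its groups was 1.60, and it fell by 2.45 (SE 0.217; limma adjusted p = 1.18e-06).

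DLA-12, another class I gene of the complex, was at 6.68, 6.06, 5.90 and 4.58 log2 CPM in fresh-frozen and at 4.28, 4.36, 4.46 and 4.58 in fixed libraries. Fresh-frozen replicate 4 stood far below the other 3 and only 0.00056 above the highest fixed library. The gene fell by 1.39 (SE 0.330; limma adjusted p = 0.00276), and by 1.79 without that replicate. In the same replicate DLA88 was the second highest of the fresh-frozen values. Class I genes are near-identical in long stretches, and how reads were divided between them is not given in the sources used here, so the values of single heavy chain genes are uncertain. The sum of DLA88 and DLA-12, formed after the data were seen, was at 8.28, 7.54, 7.53 and 7.52 log2 CPM in fresh-frozen and at 5.33, 5.65, 5.31 and 6.03 in fixed libraries. Its fresh-frozen replicates 2 to 4 lay close together, and it fell by 2.14 (SE 0.190; limma adjusted p = 1.18e-06), a 4.40-fold lower level.

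DLA-79, a divergent class I gene that lies outside the main complex, was at 4.27, 2.94, 3.65 and 3.46 log2 CPM in fresh-frozen libraries and at 4.60, 4.34, 4.45 and 4.72 in fixed ones. The highest fresh-frozen value, that of replicate 1, was 0.0612 below the lowest fixed value. The gene rose by 0.95 (SE 0.228; limma adjusted p = 0.00296), a 1.93-fold higher level. Within a library its log2 ratio to DLA88 ran from -3.96 to -3.31 in fresh-frozen and from -0.64 to 0.31 in fixed retina, again a description of a pair chosen after its values were seen.

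B2M, the light chain that class I molecules share, had a smaller fall than the heavy chains DLA88, DLA-64 and DLA-12. It was at 7.45, 6.70, 6.61 and 6.82 log2 CPM in fresh-frozen libraries and at 6.30, 6.34, 6.12 and 6.21 in fixed ones, 0.27 apart. Its change was -0.65 ± 0.152 (SE, n = 4 each; limma adjusted p = 0.00238), a 1.57-fold lower level, and 21.0% of all genes had a lower value of the change. Without fresh-frozen replicate 1, the highest library, it was -0.47 and still called. The log2 ratio of DLA88 to B2M within a library ran from 0.19 to 0.50 in fresh-frozen and from -1.98 to -0.85 in fixed retina, and that of DLA-64 to B2M from -0.00842 to 0.48 and from -1.89 to -1.09. Both ratios were formed after the data were seen and carry no test. FCGRT, the heavy chain of the neonatal Fc receptor and another partner of B2M, fell by 2.83 (SE 0.138; limma adjusted p = 9.87e-09).

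The members of peptide transport and loading fell by less than DLA88. TAP2, one of the 2 chains of the peptide transporter, was at 6.23, 5.83, 5.89 and 5.88 log2 CPM in fresh-frozen libraries and at 5.80, 5.83, 5.50 and 5.58 in fixed ones. The groups were 0.0044 apart, and the change of -0.28 ± 0.108 (SE; limma adjusted p = 0.0350) was the smallest of the 13 members. The call ended without fresh-frozen replicate 1 (-0.19), PFA-fixed replicate 3 (-0.22) or PFA-fixed replicate 4 (-0.25), with centring on the library median (-0.20) and with limma without its intensity trend (limma adjusted p = 0.0611). TAPBP, the chaperone tapasin that bridges the transporter and the heavy chain, was at 6.03, 5.88, 5.91 and 5.74 log2 CPM in fresh-frozen libraries and at 4.99, 4.70, 4.73 and 4.94 in fixed ones. Its groups were 0.75 apart, and it fell by 1.05 (SE 0.0952; limma adjusted p = 1.42e-06), a 2.07-fold lower level.

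Of 10 measured class I loading and trimming genes 4 fell and 2 rose, where 34.7% and 33.9% of all genes did. The falls are near the share of all genes, and the median change was -0.15. The disulfide isomerase PDIA3, a partner of tapasin in the loading complex, fell by 0.95, the peptide-trimming protease ERAP1 by 0.58 and the endoplasmic reticulum export factor BCAP31 by 0.56. The chaperone calnexin (CANX) fell by 0.20, a call that ended with centring on the library median (-0.12). The chaperone calreticulin (CALR) rose by 0.35, which no longer passed after quantile normalization (0.15) or centring on the rod genes (0.15), and the peptidase TPP2 rose by 0.47. The tapasin-related TAPBPL stood at -0.46 (limma adjusted p = 0.0555). It passed as lower when replicate 4 of either group was left out (-0.55 and -0.54), with rod centring (-0.67) and with limma without its trend.

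The immunoproteasome replaces catalytic subunits of the ordinary proteasome in cells exposed to interferon. Of its 5 genes 3 fell and 0 rose, where 34.7% and 33.9% of all genes did (median change -0.65). The catalytic subunits PSMB8 and PSMB9 fell by 1.41 and 1.24, and the activator subunit PSME2 by 0.65. PSMB10 and PSME1 differed by 0.22 and 0.05 (limma adjusted p = 0.519 and 0.609). Of 13 measured genes of the ordinary core 10 fell, 0 rose and the median was -0.59, and PSMB5, PSMB7 and PSMB6, whose products the immunoproteasome subunits replace, fell by 1.10, 0.69 and 0.60.

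**Figure D2:**
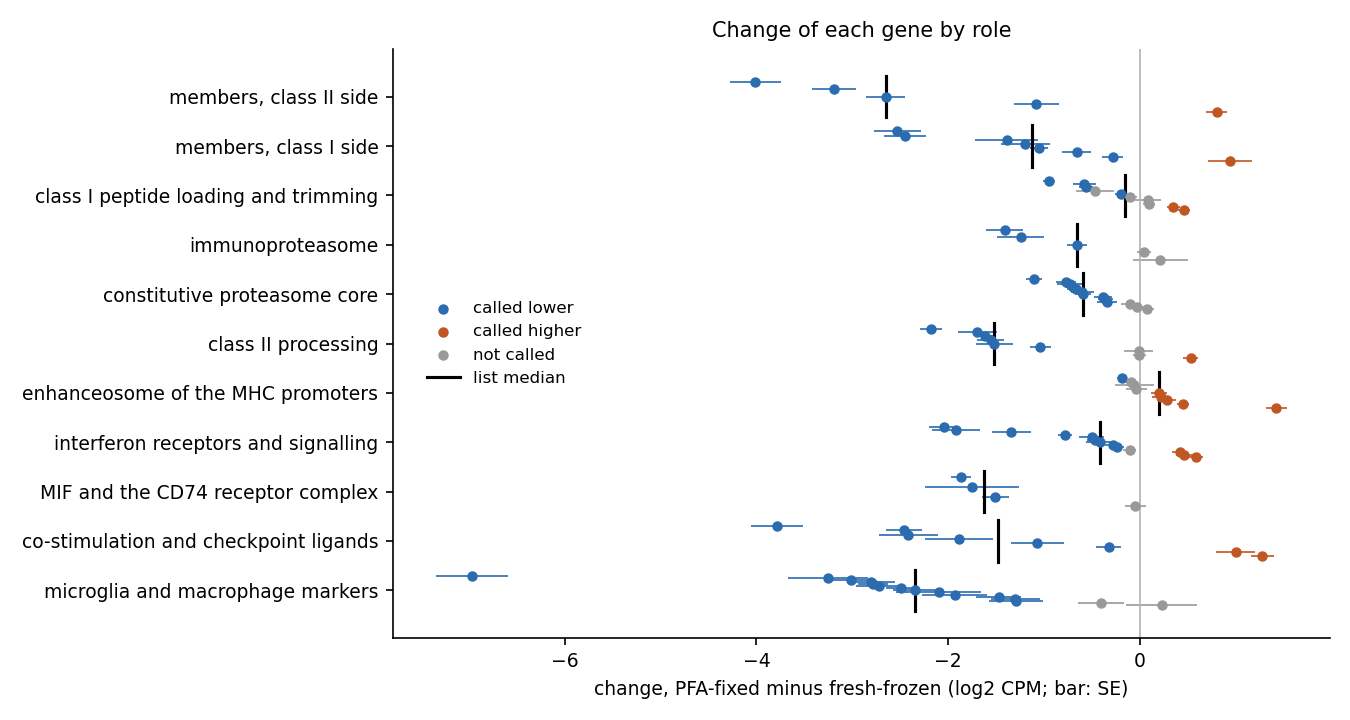
Change of each gene in log2 CPM, PFA-fixed minus fresh-frozen (horizontal axis), with its SE, for the members and for genes of their pathway grouped by role, and for microglia and macrophage markers. The median is -2.65 for the class II side, -2.34 for the microglia and macrophage markers and 0.20 for the factors that bind the promoters.

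Ratios of 2 genes within a library were compared for the 6 listed pairs of 11 that had both genes in the table. The log2 ratio of CD74 to B2M ran from 0.04 to 0.58 in fresh-frozen and from -2.12 to -1.26 in fixed libraries. It differed by -1.99 (exact two-sided permutation p = 0.0286, adjusted p = 0.0857 over 6 pairs), the smallest p that 8 libraries allow, and did not pass after adjustment. The ratio of TAP2 to its neighbour PSMB8 ran from 1.30 to 1.88 in fresh-frozen and from 2.45 to 2.91 in fixed libraries, a difference of 1.13 with the same p-values. The ratios of PSMB9 to PSMB6 (-0.65) and of PSMB10 to PSMB7 (0.91) overlapped between the groups (exact permutation p = 0.0571 each, adjusted p = 0.0857). Those of PSMB8 to PSMB5 (-0.31, exact permutation p = 0.171) and of B2M to NLRC5 (0.54, exact permutation p = 0.114) did not pass either, with adjusted p-values of 0.171 and 0.137.

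**Figure D3:**
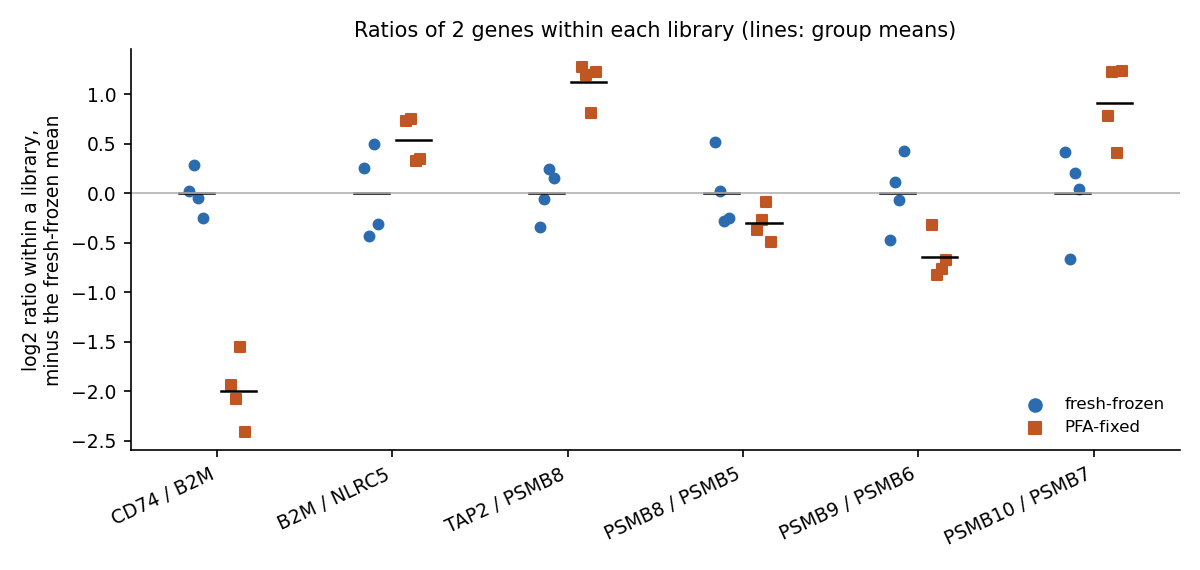
The log2 ratio of 2 genes within each library minus its fresh-frozen mean (vertical axis), for the 6 tested pairs, with 1 point for each library and lines at the group means. All 4 fixed libraries lie below all fresh-frozen ones for CD74 to B2M and above them for TAP2 to PSMB8, and the groups overlap for the other 4 pairs.

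NLRC5, the activator of class I genes, was at 2.62, 2.56, 1.54 and 2.55 log2 CPM in fresh-frozen libraries and at 0.99, 1.01, 1.22 and 1.29 in fixed ones. Fresh-frozen replicate 3 was 0.25 above the highest fixed library and well below the other fresh-frozen ones. The gene fell by 1.19 (SE 0.259; limma adjusted p = 0.00148), a 2.29-fold lower level, and fixed values rested on an estimated 21 to 34 reads. Of 9 measured factors that NLRC5 and CIITA assemble with on promoters of the complex 5 rose and 1 fell, with a median of 0.20, where 33.9% of all genes were called higher. The groups did not overlap for 2 of the 5, NFYB and EP300, and overlapped for NFYA, CREB1 and ATF1, whose changes were 0.22, 0.20 and 0.28. These 3 did not pass with rod centring (0.0169, -0.00194 and 0.0789). Leaving out a single library ended the call of ATF1 for fresh-frozen 1 (0.23) and fixed 3 (0.22), that of CREB1 for fresh-frozen 1, 3 and 4 and fixed 2 and 3 (0.15 to 0.20), and that of NFYA for every library except fresh-frozen 1 and fixed 4 (0.17 to 0.23). NFYB, a subunit of the CCAAT-binding factor, rose by 1.43 and the coactivator EP300 by 0.45. CREBBP fell by 0.18, a call that ended with centring on the library median (-0.10). RFX5, which binds the X box of these promoters, differed by -0.03 (limma adjusted p = 0.798).

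Interferon gamma is the main inducer of both pathways. Of 13 measured genes of interferon receptors and signalling 9 fell and 3 rose, where 34.7% and 33.9% of all genes did, with a median of -0.41. The receptor chain IFNGR2 fell by 2.04, and the transcription factors IRF1 and IRF8 by 1.91 and 1.34. JAK1 fell by 0.77, while IRF9 rose by 0.59. The other receptor chain, IFNGR1, fell by 0.41 (limma adjusted p = 0.0280). It stayed past the threshold when replicate 2 of fresh-frozen or replicate 3 of fixed retina was left out, but not when any other single library was (-0.41 to -0.30), nor with median centring (-0.33) or limma without its trend. IFNAR1 fell by 0.23, a call that ended with centring on the library median (-0.15). Of 8 measured co-stimulation and checkpoint ligands 6 fell and 2 rose, against the same shares of all genes, with a median of -1.48. The adhesion ligand ICAM1 fell by 3.79, the checkpoint protein VSIR by 2.46 and the co-stimulator CD86 by 2.41. CD274, which encodes the checkpoint ligand PD-L1, rose by 1.28 and CD80 by 1.01. ICOSLG fell by 0.32 (limma adjusted p = 0.0488), and it lost its call when any library but fresh-frozen replicate 4 was left out, and with quantile normalization or centring on the library median (-0.0739 and -0.24).

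Position in the histocompatibility complex was compared with the change. In the gene table of the assembly UU_Cfam_GSD_1.0, used only for the order of genes, 94 protein-coding genes ran from DLA88 to TAPBP. Of these 61 were measured under the same symbol, 8 of them members. DLA-12 and HLA-DQB2 were measured but are not among these 61, so they have no place in the order. Of the 53 genes that were not members 12 fell and 26 rose, where 34.7% and 33.9% of all genes did, with a median change of 0.21. Among those that rose, LY6G6C exceeded 1 CPM in fixed libraries alone and could be in the table only through that group. Among the 61 genes DLA-DRA, DLA-DQA1, TAP2, PSMB8, PSMB9 and DLA-DMB followed each other and all 6 fell, and the next one, DLA-DMA, rose. Next to DLA-DMA, the chromatin reader BRD2 rose by 0.29, which did not pass after quantile normalization (0.0795) or rod centring (0.0907). At the far end TAPBP fell by 1.05 while its neighbours RGL2 and ZBTB22 rose by 0.75 and 0.99.

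**Figure D4:**
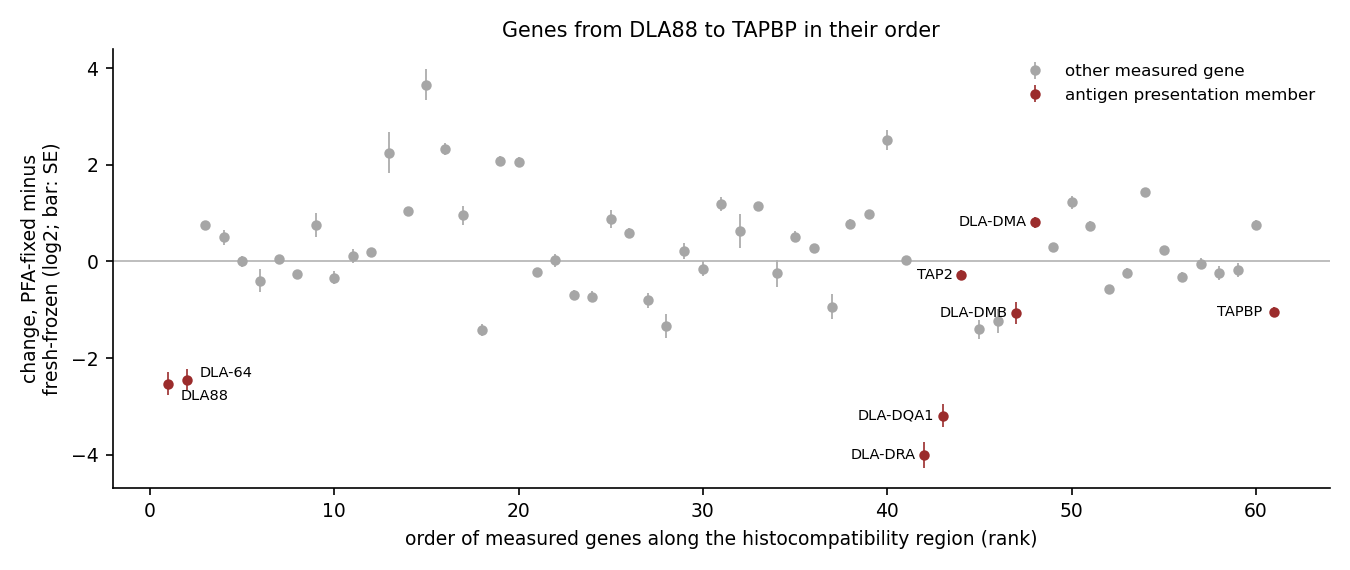
Change in log2 CPM with its SE (vertical axis) of the 61 genes from DLA88 to TAPBP that were measured under the same symbol. Genes stand in their order on the chromosome (horizontal axis, rank), members in red and other genes in grey. Of the 8 members 7 lie below 0 and DLA-DMA lies above it, while of the 53 other genes 26 were called higher (33.9% of all genes).

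The genes whose profile over the 8 libraries came closest to a member were taken by the root mean square difference after each profile was centred on its own mean, which reads the size of the change as well as the order of libraries. For CD74 they were A2M, a protease inhibitor (0.167 log2 units), and TEK, the endothelial angiopoietin receptor (0.178). For DLA-DQA1 they were ITGB2, the integrin beta chain of leukocytes (0.207), and SEMA3B (0.212), and for DLA-DRA they were RNASE4 (0.247) and PAX1 (0.253). DLA88 was closest to PLA2G4A (0.189) and CCKBR (0.214), DLA-64 to FHL5 (0.203) and FGFR3 (0.232), and DLA-12 to SNX21 (0.343) and RAB3D (0.353). DLA-79 was closest to ARHGEF33 (0.135) and ICAM5 (0.169), and DLA-DMA to CDK10 (0.0714) and RWDD2B (0.0745). B2M was closest to HOMER3 (0.0898) and PLOD3 (0.106), TAPBP to PEF1 (0.0442) and SLC20A2 (0.0450), and TAP2 to RTN2 (0.0654) and MRPL23 (0.0735). PAX1, CCKBR and FHL5 exceeded 1 CPM in fresh-frozen libraries alone and could be in the table only through that group.

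Markers of vessels, supporting tissue and pigment epithelium, which can also carry class I molecules, were lower in fixed libraries too. Of all genes 34.7% were called lower and 33.9% higher. Of 9 endothelial markers 8 fell and none rose (summed level 974 to 1336 CPM in fresh-frozen and 510 to 630 CPM in fixed libraries, median change -2.64), and of 5 pericyte and smooth muscle markers 5 fell (1504 to 2239 and 344 to 420 CPM, median -2.26). All 8 fibroblast and sclera markers fell (7653 to 10760 and 184 to 210 CPM, median -7.46), with DPT at the lowest value of the table in 2 fixed libraries. LUM and DPT exceeded 1 CPM in fresh-frozen libraries alone and could be in the table only through that group. Their falls therefore add nothing to the count, and the median includes them. All 7 pigment epithelium markers fell (2137 to 3157 and 86.1 to 161 CPM, median -4.84), and 6 of 7 Müller glia markers fell (6963 to 8720 and 2982 to 3861 CPM, median -1.03). The changes of DLA88 and DLA-64 (-2.53 and -2.45) lie between the endothelial median (-2.64) and 2 other medians. Those are the medians of the microglia and macrophage markers (-2.34) and of the pericyte and smooth muscle markers (-2.26). The part of these cells in the class I result was not tested.

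Fresh-frozen replicate 1 had the highest value of its group in 12 of 13 members, with DLA-DMA as the exception, while it was the highest fresh-frozen library in 25.8% of all genes. In that library the summed level of microglia and macrophage markers was 204 CPM, against at most 181 CPM in the other fresh-frozen libraries, and that of endothelial markers was 1336 CPM against at most 1083 CPM. The sums of lymphocyte, pigment epithelium and Müller glia markers were highest there as well (131, 3157 and 8720 CPM, against at most 123, 3072 and 8248 CPM). Those of pericyte and smooth muscle, rod, dendritic cell, and fibroblast and sclera markers were not (2112, 27941, 40.3 and 7653 CPM, against up to 2239, 31922, 42.9 and 10760 CPM). Without it 10 of the 13 members were called lower and 2 higher. In fixed retina no library was the highest in more than 4 members.

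DLAT, the gene matched by its letters alone, was at 5.74 ± 0.07 log2 CPM in fresh-frozen and 5.76 ± 0.13 in fixed libraries (SD, n = 4 each; change 0.01, limma adjusted p = 0.899).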

How the data were processed

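The deposited table holds log2 CPM values made by the authors. The submitters' processing notes name the pseudo-aligner kallisto (0.48.0), edgeR and limma without their roles. Reference, strand setting, scaling between libraries and filter: not given in the sources used here. No gene exceeded 1 CPM in fewer than 4 libraries. Columns were matched to samples by title. Log2 values were tested with limma 3.58.1 (R 4.3.3) with an intensity trend, the group as the only term and Benjamini-Hochberg adjustment over 12824 genes, and the step was tested on simulated data. No count test was run, because among low values (up to 20 reads) only 61.3% to 67.3% came out whole within 0.1 of a read. The spacing was searched between 0.03 and 0.15 CPM. Ratios were compared by exact permutation over 70 assignments. Members, lists and pairs were chosen with earlier results of these data known. The text names the members, HLA symbols, the genes of the 6 pairs, for each list the 2 genes with the highest level and the 2 called genes with the largest change, the 2 nearest profiles of each member whose mean reached 3 log2 CPM in either group, and neighbours of members. Other genes of the lists that are named were picked after their values were seen. By symbol, 12 of the 13 members matched the RefSeq gene table, and DLA-12 did not. Alternatives were other scalings, a pseudocount of 1 CPM, a minimum mean of 3 log2 CPM, limma without trend, a test against 1.5-fold, a replicate block and leaving out each library. Some genes are not reported here.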

Additional observations from a re-analysis of the deposited data

Results flagged for a closer look

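Values that stood far from the other 3 libraries of their group (past Dixon's 95% critical value) were looked for in 208 groups of 4 libraries over 104 genes, and 14 were found, where chance gives about 1 in 20 groups. That rate does not apply to the near profiles, which were chosen because they matched a member library by library. Among the members, NLRC5 was at 1.54 log2 CPM in fresh-frozen replicate 3, against 2.55 to 2.62 in the other 3. TAP2 was at 6.23 in fresh-frozen replicate 1, against 5.83 to 5.89. Fresh-frozen replicate 1 also stood apart for TEK at 5.71 (5.24 to 5.31 in the others), HOMER3 at 6.09 (5.43 to 5.46), FHL5 at 1.005 (0.52 to 0.55) and MRPL23 at 5.14 (4.95 to 4.97). These genes are near profiles of CD74, B2M, DLA-64 and TAP2. Those members were highest in that library among fresh-frozen ones, so this follows from the choice of the genes. SNX21, a near profile of DLA-12, was at 3.09 in fresh-frozen replicate 4 (3.95 to 4.01 in the others), and P2RY12 was at 1.60 there (0.28 to 0.41). In fixed retina IFNGR2 was at 3.24 in replicate 1 (2.62 to 2.72), IRF9 at 6.62 in replicate 2 (6.44 to 6.47), PSME2 at 4.41 in replicate 3 (4.12 to 4.14), ACKR3 at 3.14 there (3.58 to 3.63) and PSMB4 at 4.00 in replicate 4 (4.29 to 4.33). PAX1, a near profile of DLA-DRA, was at -2.03 in PFA-fixed replicate 3, with the other 3 at the lowest value of the table (-3.12).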

How the results depend on the processing

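Of 205 recomputed changes of members 193 kept direction and call, none reversed, and 12 lost the call, 6 of them for TAP2. Against a minimum change of 1.5-fold, 6 members were lower, none was higher (0), and 3343 of all genes were called. That test ended the calls of B2M, DLA-12, DLA-79, DLA-DMA, DLA-DMB, NLRC5 and TAP2. Leaving out single libraries gave 10 to 11 members lower, 2 higher, and 8338 to 8649 of all genes called. Deviations of same-numbered libraries had correlations across genes of 0.0496, 0.149, -0.0893 and 0.224. Those of libraries with different numbers ran from -0.270 to 0.219, and not every library correlated best with its own number. So few values cannot show whether same-numbered libraries came from one dog. With the replicate block 8799 genes were called in place of 8804, no call of a member changed, and ZBTB46 (limma adjusted p = 0.0403) was called lower and ICOSLG and NFYA (limma adjusted p = 0.0758 and 0.0587) were not called. Only 10 members had the minimum mean of 3 log2 CPM, of which 8 were lower and 2 higher. Uncalled genes changed sign as follows. Leaving out single libraries moved CTSL from -0.0372 to 0.0361, DLAT from -0.0389 to 0.0556, MIF from -0.11 to 0.050, PSMA4 from -0.0784 to 0.0348, MARCHF1 from -0.0873 to 0.0854, RFX5 from -0.0758 to 0.0345 and PSMB10 from -0.00427 to 0.37. With median centring CTSL, MIF, PSMA4, MARCHF1 and RFX5 were at 0.0767, 0.0349, 0.0578, 0.0707 and 0.0455, and with quantile normalization MARCHF1 and RFX5 were at 0.29 and 0.14. With rod centring DLAT, PSMA3, PSME1 and FLT3 were at -0.19, -0.13, -0.16 and -0.0410, and CREB1, called higher without it, was at -0.00194. The causes were not tested. Ratios without 1 library can reach an exact permutation p of 0.0571 at best, so they were read as values only, and all kept their direction. With 1 CPM added, the ratio of PSMB10 to PSMB7 (0.82) reached an exact permutation p of 0.0286. Read estimates limit the precision of DLA-DRA, DLA-DQA1, DLA-DMB, HLA-DQB2 and NLRC5 in fixed libraries.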
